A study of Mus musculus with 21 samples.

Results

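Excitatory projection neurons of the cortex release glutamate and are arranged in layers, and each layer is known by genes that its neurons express more than their neighbours do. The genes described here are 10 such markers, taken by symbol from the array's probe annotation and chosen with earlier results of these data known. They are the vesicular glutamate transporters Slc17a6 and Slc17a7, the neuronal transcription factor Mef2c, and the upper-layer genes Calb1 and Cux1. The others are the layer 4 gene Rorb, the deep-layer genes Crym and Tle4, and Neurod1 and Wfs1, which are also used as hippocampal markers. No probe set named Slc17a7 alone, so 9 of the 10 genes were measured, out of 12393 genes on the array. They were read by 22 probe sets. Where a gene had several, the one of highest mean over all arrays stood for it.

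The levels came from the cerebral cortex of 21 mice, 1 Affymetrix MOE430A 2.0 array a mouse. The dNLS bigenic group (5 mice, line NLS4) carried both a tTA transgene and a transgene for human TDP-43 with a defective nuclear localization signal. The WT bigenic group (4 mice, line WT12) carried tTA and wild-type human TDP-43, the dNLS monogenic group (4 mice, line NLS4) the dNLS TDP-43 transgene with no tTA, and the nontransgenic group (6 mice of line NLS4 and 2 of line WT12) neither transgene. The transgene is on in bigenic mice once doxycycline is withdrawn, and tissue was taken 2 weeks off doxycycline. All mice were of a mixed C57BL/6J x C3HeJ background. The labels give neither the ages nor the promoter of tTA; the published line uses that of Camk2a, a gene of forebrain excitatory neurons. Each form of TDP-43 was in 1 line, so form and line cannot be told apart, and no group carried tTA alone, so an effect of tTA cannot be told apart from one of TDP-43. By label 4 of the 5 dNLS bigenic, 1 of the 4 WT bigenic, 3 of the 4 dNLS monogenic and 4 of the 8 nontransgenic mice were male. Nothing in the labels says that mice came from separate litters, so the p-values measure the spread between these mice.

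Arrays were alike in scale, with medians between 5.76 and 6.05 on the log2 scale, and each held between 30.7% and 32.4% of its probe sets at a lowest value of 2.04. They were less alike in 3' bias. The beta-actin control probe sets differed between the 3' and the 5' end by 8.20 log2 units on nontransgenic 6 and by 4.70 on nontransgenic 4, against 1.34 to 3.27 on the other 19 arrays. By group the difference was 1.34 to 2.30 in dNLS bigenic, 1.37 to 1.43 in WT bigenic, 1.56 to 3.13 in dNLS monogenic and 1.46 to 8.20 in nontransgenic mice. All WT bigenic arrays lay below all nontransgenic arrays, so bias and genotype go together in that comparison. Over the 8 nontransgenic arrays the correlation of a marker with this bias ran from -0.63 for Crym to 0.84 for Cux1, and was 0.76 for Slc17a6. Nontransgenic 1, labelled male, read as female by Xist. The results below were computed on all 21 arrays, and calls of the 9 genes that change without the 2 arrays of highest bias are given with and without them.

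Glutamate transporters load synaptic vesicles with glutamate and so define the excitatory transmitter. Mef2c acts downstream of calcium entry and shapes the number of excitatory synapses. Layer markers serve different ends: Cux1 (a homeobox factor), Rorb (an orphan nuclear receptor), Tle4 (a Groucho corepressor) and Neurod1 (a basic helix-loop-helix factor) act in transcription, Calb1 (calbindin) buffers calcium, Crym (mu-crystallin) binds thyroid hormone, and Wfs1 (wolframin) is a membrane protein of the endoplasmic reticulum. In bulk tissue, fewer cells of a type and less RNA per cell cannot be told apart.

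The promoters of these genes differ in base composition. Of the 10, 8 had an entry in RefSeq's promoter windows of assembly GRCm38.p6, 13 windows in all, each running from 250 bases before to 50 after a start site. The windows of 3 genes with large decreases are shown, on the strand of the gene, with each CpG in capitals. They are Slc17a6 at chr7:51621580-51621879 (plus strand), Neurod1 at chr2:79456587-79456886 (minus strand) and Wfs1 at chr5:36988933-36989232 (minus strand).
Slc17a6: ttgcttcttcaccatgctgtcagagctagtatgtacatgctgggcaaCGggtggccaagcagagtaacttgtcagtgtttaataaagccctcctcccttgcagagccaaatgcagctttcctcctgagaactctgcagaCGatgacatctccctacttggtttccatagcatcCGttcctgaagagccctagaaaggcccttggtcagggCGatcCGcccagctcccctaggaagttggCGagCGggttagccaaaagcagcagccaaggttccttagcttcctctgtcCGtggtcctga
Neurod1: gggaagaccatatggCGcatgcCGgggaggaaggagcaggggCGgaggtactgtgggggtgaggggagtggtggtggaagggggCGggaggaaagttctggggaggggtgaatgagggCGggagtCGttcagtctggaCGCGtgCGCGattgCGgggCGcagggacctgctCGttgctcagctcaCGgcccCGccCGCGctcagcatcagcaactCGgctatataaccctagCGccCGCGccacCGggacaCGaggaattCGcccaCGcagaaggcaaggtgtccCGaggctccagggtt
Wfs1: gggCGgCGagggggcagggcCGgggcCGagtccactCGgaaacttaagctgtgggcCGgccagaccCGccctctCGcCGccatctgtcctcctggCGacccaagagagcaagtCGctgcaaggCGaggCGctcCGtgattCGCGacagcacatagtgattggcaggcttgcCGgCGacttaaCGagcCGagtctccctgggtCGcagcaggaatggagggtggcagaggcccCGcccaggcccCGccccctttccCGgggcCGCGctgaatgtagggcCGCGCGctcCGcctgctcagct
RefSeq has a second Slc17a6 window, at chr7:51624387-51624686 (plus strand), which is not shown and held 3 CpG, 43.0% G or C and 1 match of the letters CAGATG. The Slc17a6 window shown held 8 CpG and 53.7% G or C, close to the medians of 7 CpG and 52.7% over 32851 windows. Those of Neurod1 and Wfs1 were richer, with 26 CpG and 66.7% for Neurod1, and 30 CpG and 70.0% for Wfs1. The E-box CAGATG, a form that Neurod1 is known to bind, occurred on either strand in 17.2% of the 32851 windows, and among the 3 shown it occurred once, in that of Wfs1. The E-box CAGCTG (16.3% of all windows) and the letters TATAAA (13.6%) occurred in none of the 3.

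In dNLS bigenic cortex 8 of the 9 measured genes were lower than in nontransgenic cortex, and none was higher. The genes were Wfs1, Slc17a6, Neurod1, Crym, Calb1, Cux1, Tle4 and Mef2c, in order of size, and Rorb did not pass the test. Of all 12393 genes 22.3% passed in this comparison and 11.5% passed as lower (limma, Benjamini-Hochberg adjusted p of 0.05). For the same 8 genes every dNLS bigenic mouse lay below every nontransgenic mouse, which held for 5.68% of all genes. The median log2 difference was -0.89 over the 9 genes and 0 over all genes. Shares and medians over all genes, here and below, count 2854 genes at the lowest value on all arrays. Without these genes the median was -0.02. The count was also 8 of 9 without the 2 arrays of highest 3' bias, and it was 5 of 9 when the probe set of highest variance, rather than of highest mean, stood for each gene. The dNLS monogenic mice carry the same transgene without its driver. None of the 9 genes passed in limma in these mice against nontransgenic mice, with a median of -0.02, and none of the 12393 genes did (0 called, 0% of them). An unadjusted p under 0.05 in limma was seen for 196 genes (1.58% of all genes), none of them among the 9.

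**Figure D1:**
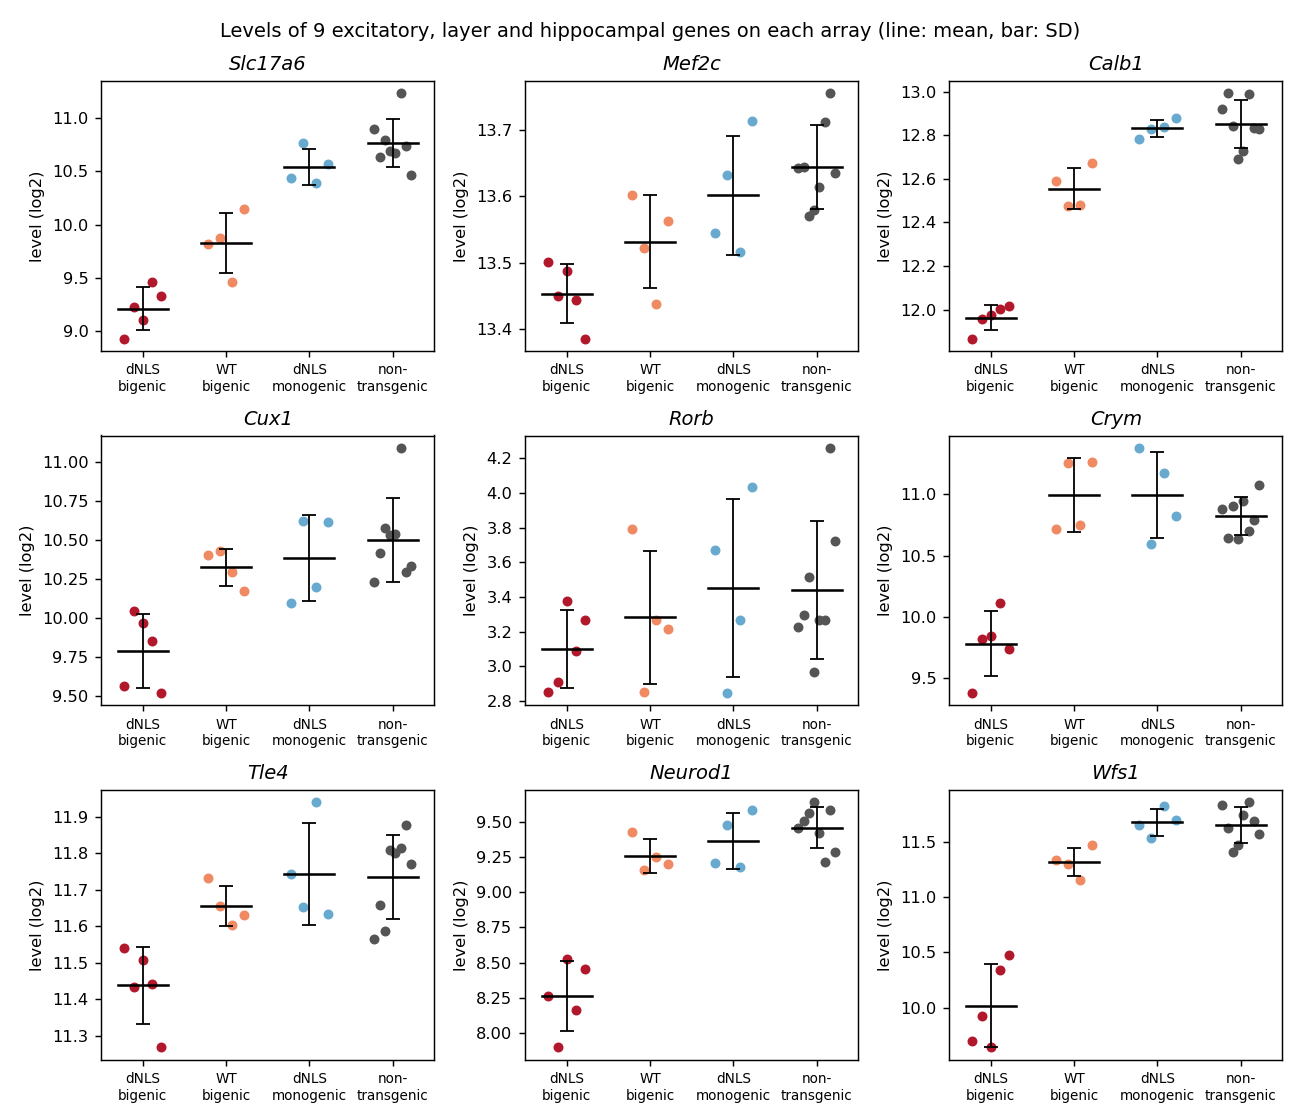
Log2 level of the representative probe set of each of the 9 measured genes on each of the 21 arrays, by genotype, with the mean as a line and the SD as a bar. The dNLS bigenic arrays lie below all nontransgenic arrays in every panel but that of Rorb, and the WT bigenic arrays lie between for Slc17a6 and Calb1.

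Slc17a6 encodes VGLUT2, the transporter of most subcortical and thalamic glutamate neurons, expressed more weakly in the cortex. Its level was 8.93, 9.23, 9.11, 9.46 and 9.33 in the 5 dNLS bigenic mice, 9.82, 9.87, 9.46 and 10.14 in the 4 WT bigenic mice, 10.44, 10.77, 10.39 and 10.57 in the 4 dNLS monogenic mice, and 10.46 to 11.23 with a median of 10.71 in the 8 nontransgenic mice. Both bigenic groups lay wholly below both groups without an active transgene, and the highest dNLS bigenic mouse met the lowest WT bigenic mouse at 9.46. The log2 difference was -1.54 ± 0.13 (SE, n = 5 against 8, adjusted p = 3.4e-07) for dNLS bigenic against nontransgenic, a 2.90-fold decrease. It was -1.33 ± 0.15 (adjusted p = 1.2e-05) for dNLS bigenic against dNLS monogenic.

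Slc17a6 was also the gene of the 9 that changed most in WT bigenic mice. Its log2 difference was -0.95 ± 0.14 (n = 4 against 8, adjusted p = 0.0106), a 1.93-fold decrease, and it ranked 4 among 12393 genes by p in that comparison. It held when each mouse of either group was left out in turn, with adjusted p of at most 0.0315. It did not pass against the 2 nontransgenic mice of line WT12 alone (adjusted p = 0.112) or when those 2 groups alone were fitted (adjusted p = 0.138). The direct difference between dNLS bigenic and WT bigenic mice was -0.59 ± 0.16 (adjusted p = 0.0257), and its adjusted p reached up to 0.104 with 1 mouse left out: the call was lost without dNLS bigenic 1 or 3 or WT bigenic 1, 2 or 4. It was also lost with arrays centred on their medians (adjusted p = 0.0833) and in a fit of those 2 groups alone (0.0919).

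Mef2c had the smallest difference of those that passed. The levels were 13.50, 13.45, 13.49, 13.44 and 13.39 in dNLS bigenic mice, 13.60, 13.52, 13.44 and 13.56 in WT bigenic mice, 13.54, 13.63, 13.52 and 13.71 in dNLS monogenic mice, and 13.57 to 13.75 with a median of 13.64 in nontransgenic mice. The dNLS bigenic mice overlapped with the WT bigenic mice but with neither other group. The difference was -0.18 ± 0.04 (adjusted p = 0.00259) against nontransgenic and -0.15 ± 0.05 (adjusted p = 0.0377) against dNLS monogenic mice, a call that was lost in 5 of 9 fits with 1 mouse left out (without dNLS bigenic 2, 4 or 5 or dNLS monogenic 2 or 4, adjusted p up to 0.168), with centred arrays (0.103) and in a fit of those 2 groups alone (0.0878). Against WT bigenic mice it did not pass (-0.06 ± 0.05, adjusted p = 0.586) except in a fit of those 2 groups alone (0.0453). None of the other 4 probe sets of Mef2c passed in any comparison.

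Among the upper-layer genes, Calb1 had the least spread between mice. Its level was 11.87, 11.95, 11.97, 12.001 and 12.01 in dNLS bigenic mice, 12.59, 12.48, 12.48 and 12.67 in WT bigenic mice, 12.78, 12.83, 12.84 and 12.88 in dNLS monogenic mice, and 12.69 to 12.99 with a median of 12.84 in nontransgenic mice. The 2 bigenic groups formed separate steps below the others, with the WT bigenic mice above all dNLS bigenic mice and below all nontransgenic mice. The difference was -0.89 ± 0.05 (adjusted p = 1.1e-08) for dNLS bigenic against nontransgenic, a 1.85-fold decrease that ranked 6 among all genes by p, and -0.87 ± 0.06 (adjusted p = 1.6e-07) against dNLS monogenic mice.

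For WT bigenic against nontransgenic Calb1 changed by -0.30 ± 0.06 (adjusted p = 0.0181), and the call was lost without WT bigenic 1, 2 or 3 (adjusted p of 0.0514, 0.0544 and 0.0676), against the nontransgenic mice of line WT12 alone (0.0691) and in a fit of those 2 groups alone (0.173). The direct difference of dNLS bigenic and WT bigenic mice was -0.59 ± 0.06 (adjusted p = 1.7e-05). A second, dim probe set of Calb1, between 2.14 and 4.06 on all arrays, passed as lower in dNLS bigenic against nontransgenic mice, at -0.78 ± 0.18 (adjusted p = 0.00463 over 20380 probe sets). It lay close to the lowest value of the array, where differences are compressed.

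Cux1 varied more. Its level was 9.57, 10.05, 9.97, 9.86 and 9.52 in dNLS bigenic mice, 10.40, 10.43, 10.30 and 10.18 in WT bigenic mice, 10.10, 10.62, 10.20 and 10.62 in dNLS monogenic mice, and 10.23 to 11.09 with a median of 10.48 in nontransgenic mice. No dNLS bigenic mouse reached the lowest mouse of any other group. The difference was -0.70 ± 0.14 (adjusted p = 0.0016) against nontransgenic and -0.59 ± 0.16 (adjusted p = 0.0204) against dNLS monogenic mice, and it did not pass against WT bigenic mice (-0.52 ± 0.18, 95% interval -0.89 to -0.15, adjusted p = 0.074). That last comparison passed in 5 of 12 alternatives: without the sex term (adjusted p = 0.0305), with genes above the lowest value on at least 4 arrays (0.0487), with the beta-actin term (0.0115), without the 2 arrays of highest 3' bias (-0.56, 0.0138) and in a fit of those 2 groups alone (0.0171). The call against dNLS monogenic mice was lost in a fit of those 2 groups alone (0.0599), with the probe set of highest variance (0.374), and without dNLS bigenic 1 (0.0548) or 5 (0.0662) or dNLS monogenic 2 (0.0769) or 4 (0.0850). The highest nontransgenic value, 11.09, was that of the array of highest 3' bias.

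Rorb, the layer 4 gene, was read near the lowest value of the array, between 2.85 and 4.26, by its only probe set. The levels were 2.85, 2.91, 3.38, 3.09 and 3.26 in dNLS bigenic mice, 3.79, 2.85, 3.27 and 3.21 in WT bigenic mice, 3.67, 2.85, 3.26 and 4.04 in dNLS monogenic mice, and 2.97 to 4.26 with a median of 3.28 in nontransgenic mice. All groups overlapped, and the interval of the difference of dNLS bigenic and nontransgenic mice ran from -0.73 to 0.19 (adjusted p = 0.487). No difference of Rorb passed in any comparison, and how large a change could be detected at this signal was not tested.

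Crym, a deep-layer gene, was lower in dNLS bigenic mice than in each other group. The levels were 9.38, 9.82, 9.84, 10.11 and 9.74 in dNLS bigenic mice, 10.72, 11.25, 10.75 and 11.26 in WT bigenic mice, 11.38, 10.60, 11.17 and 10.83 in dNLS monogenic mice, and 10.64 to 11.07 with a median of 10.84 in nontransgenic mice. The dNLS bigenic mice lay below all others, and the other 3 groups overlapped. The difference was -1.02 ± 0.15 (adjusted p = 8.1e-05) for dNLS bigenic against nontransgenic, a 2.03-fold decrease, -1.21 ± 0.17 (adjusted p = 1.0e-04) against dNLS monogenic and -1.18 ± 0.18 (adjusted p = 4.2e-04) against WT bigenic mice. WT bigenic mice differed from nontransgenic mice by 0.16, with a 95% interval from -0.18 to 0.49.

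Tle4, the layer 6 gene, had 11.54, 11.43, 11.51, 11.44 and 11.27 in dNLS bigenic mice, 11.73, 11.65, 11.60 and 11.63 in WT bigenic mice, 11.74, 11.65, 11.94 and 11.63 in dNLS monogenic mice, and 11.57 to 11.88 with a median of 11.79 in nontransgenic mice. The dNLS bigenic mice lay below the other groups by a small margin, 11.54 against 11.57 for the nearest nontransgenic mouse. The difference of -0.30 ± 0.07 (adjusted p = 0.0028) against nontransgenic and of -0.30 ± 0.08 (adjusted p = 0.0096) against dNLS monogenic mice passed the test. That of -0.22 ± 0.08 against WT bigenic mice did not (adjusted p = 0.0989), but passed in a fit of those 2 groups alone (0.00309). A second probe set of Tle4 was at the lowest value on all arrays.

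Neurod1, which adult granule neurons of the hippocampus express most, had 8.26, 7.90, 8.52, 8.16 and 8.45 in dNLS bigenic mice, 9.43, 9.16, 9.25 and 9.20 in WT bigenic mice, 9.21, 9.48, 9.18 and 9.58 in dNLS monogenic mice, and 9.21 to 9.64 with a median of 9.48 in nontransgenic mice. The dNLS bigenic mice stood clear of all others, and the other 3 groups overlapped. The difference was -1.21 ± 0.11 (adjusted p = 5.4e-07) against nontransgenic, a 2.31-fold decrease, -1.10 ± 0.12 (adjusted p = 1.1e-05) against dNLS monogenic and -1.01 ± 0.13 (adjusted p = 9.2e-05) against WT bigenic mice. Its second probe set read 4.35, 4.46, 4.63, 4.35 and 3.88 in dNLS bigenic mice, 5.55, 5.09, 5.53 and 5.43 in WT bigenic mice, and 5.53 to 6.29 in nontransgenic mice. It passed in the same 3 comparisons, at -1.63 ± 0.14 (adjusted p = 3.3e-07), -1.31 ± 0.16 (adjusted p = 2.7e-05) and -1.18 ± 0.17 (adjusted p = 2.5e-04).

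Wfs1, a marker of hippocampal CA1 and of upper cortical layers, changed most. Its levels were 9.70, 9.92, 9.64, 10.34 and 10.48 in dNLS bigenic mice, 11.34, 11.30, 11.16 and 11.47 in WT bigenic mice, 11.65, 11.53, 11.83 and 11.70 in dNLS monogenic mice, and 11.41 to 11.86 with a median of 11.66 in nontransgenic mice. The dNLS bigenic mice lay far below all others and were spread more widely than any other group (SD 0.38, against 0.13, 0.12 and 0.16 in WT bigenic, dNLS monogenic and nontransgenic mice), with mice 4 and 5 highest. The difference was -1.58 ± 0.12 (adjusted p = 1.1e-07) against nontransgenic, a 3.00-fold decrease, -1.65 ± 0.14 (adjusted p = 6.4e-07) against dNLS monogenic and -1.21 ± 0.15 (adjusted p = 5.2e-05) against WT bigenic mice. WT bigenic mice differed from nontransgenic mice by -0.38 ± 0.13 (adjusted p = 0.131), which did not pass.

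**Figure D2:**
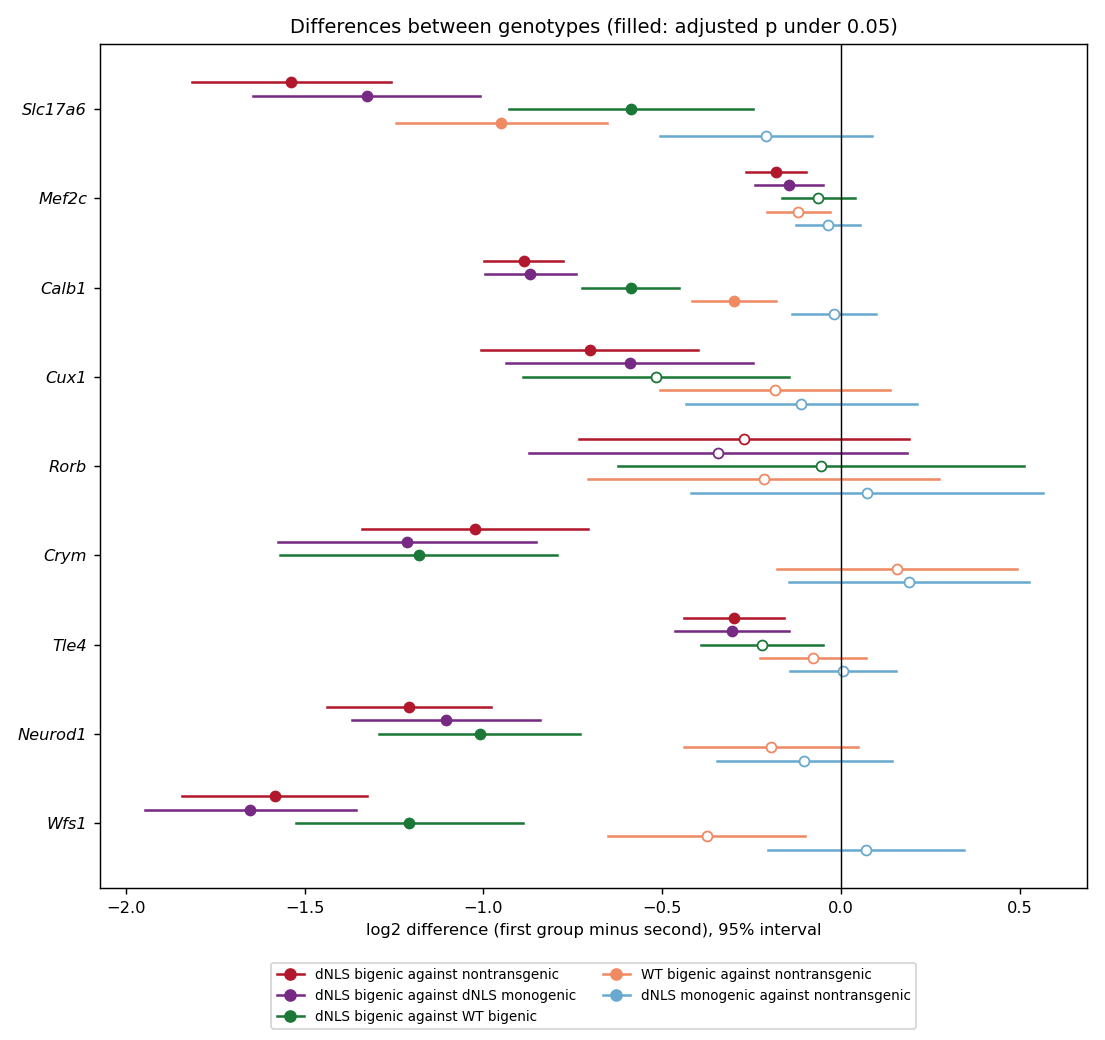
Log2 difference of each of the 9 genes in the 5 comparisons, first group minus second, with its 95% interval; filled points passed an adjusted p of 0.05. All passing differences are negative, the largest are those of Wfs1 and Slc17a6 in dNLS bigenic mice, and the points of dNLS monogenic against nontransgenic mice lie around 0.

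In mice with wild-type TDP-43, at the same time off doxycycline, fewer of these genes passed than in dNLS bigenic mice. In WT bigenic against nontransgenic mice 2 of the 9 genes passed, Slc17a6 and Calb1, both lower, where 2.23% of all genes passed and 1.54% passed as lower. These 2 were also those with no overlap between the groups (3.33% of all genes lay wholly below), and the median over the 9 genes was -0.20. Against WT bigenic mice directly, dNLS bigenic mice were lower in 5 of the 9 genes, Slc17a6, Calb1, Crym, Neurod1 and Wfs1, where 10.8% of all genes passed and 4.53% passed as lower. They lay wholly below WT bigenic mice for 7 of the 9, all but Mef2c and Rorb, against 9.99% of all genes. Against dNLS monogenic mice 8 of the 9 were lower, all but Rorb, where 14.3% of all genes passed and 6.54% passed as lower, and the same 8 lay wholly below (9% of all genes). The comparisons share groups: that with nontransgenic mice and that with WT bigenic mice both use the dNLS bigenic arrays.

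The sexes were unevenly spread, so the groups were also set side by side within a sex as labelled. Among males all 4 dNLS bigenic mice lay below all 4 nontransgenic mice for 8 of the 9 genes, and for 15.1% of all genes. Among females the 3 WT bigenic mice lay below the 4 nontransgenic mice for 5 of the 9, Slc17a6, Mef2c, Calb1, Tle4 and Wfs1, and for 6.79% of all genes.

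The effect of each driven transgene was also set against the nontransgenic mice of its own line, and the difference of the 2 effects was tested. It passed for 4 of the 9 genes, where 3.55% of all genes passed and 1.89% passed with a more negative dNLS effect. The dNLS effect was more negative by 1.35 ± 0.22 log2 units for Wfs1 (adjusted p = 0.00282), by 1.08 ± 0.28 for Crym (adjusted p = 0.0399), by 1.03 ± 0.20 for Neurod1 (adjusted p = 0.0091) and by 0.62 ± 0.10 for Calb1 (adjusted p = 0.00184). For Slc17a6 the difference was -0.84 ± 0.23 (adjusted p = 0.0523) and for Cux1 -0.80 ± 0.25 (adjusted p = 0.0952), and neither passed. That of Slc17a6 passed with quantile normalization (0.0436), with genes above the lowest value on at least 4 arrays (0.0358), with array weights (0.00196), and without dNLS bigenic 4 (0.0375), nontransgenic 5 (0.0315) or WT bigenic 3 (0.0165). Line WT12 gave only 2 nontransgenic mice: without nontransgenic 8, which is 1 of them, the call of Neurod1 was lost (adjusted p = 0.0852), and that of Crym was lost in 11 of 17 fits with 1 mouse left out.

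The probe sets of a gene did not all move alike. The 9 representative probe sets had 13 others beside them, and 3 of these (2 of Cux1 and 1 of Tle4) were at the lowest value on every array. Of the 13, those of Neurod1 and Calb1 above passed as lower in dNLS bigenic against nontransgenic mice, where 19.7% of 20380 probe sets passed and 9.48% as lower. The second probe set of Slc17a6 read 4.97, 5.44, 5.23, 5.61 and 4.92 in dNLS bigenic mice, 6.29, 6.32, 5.52 and 6.77 in WT bigenic mice, 7.40, 6.82, 6.96 and 7.28 in dNLS monogenic mice, and 3.78 to 7.60 with a median of 7.12 in nontransgenic mice.

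The 2 low nontransgenic readings of that probe set, 3.78 and 5.09, were those of nontransgenic 4 and 6, the arrays of highest 3' bias, and the other 6 nontransgenic arrays read 6.56 or more. Over all arrays the difference was -1.20 ± 0.55 (adjusted p = 0.15) and did not pass. Without the 2 arrays it was -1.93 ± 0.24 (adjusted p = 2.7e-05) against nontransgenic mice, and for WT bigenic against nontransgenic mice it was -1.01 ± 0.25 (adjusted p = 0.0463), both passing. Without them it also passed against WT bigenic mice (-0.92 ± 0.28, adjusted p = 0.037, against 0.656 over all arrays) and against dNLS monogenic mice (-1.88 ± 0.26, adjusted p = 8.9e-05, against 0.0621). The brighter Slc17a6 probe set read 10.69 and 11.23 on the same 2 arrays, within and at the top of the nontransgenic range.

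The dimmest of the 5 Mef2c probe sets followed the bias of the arrays. It read 10.45, 10.20, 10.28, 10.85 and 9.63 in dNLS bigenic mice, 11.03, 10.74, 10.49 and 10.91 in WT bigenic mice, 10.18, 8.24, 10.23 and 10.56 in dNLS monogenic mice, and 5.36 to 10.85 in nontransgenic mice, with 5.36 on nontransgenic 6 and 7.53 on nontransgenic 4. Its difference of 1.31 ± 0.76 (adjusted p = 0.283) between dNLS bigenic and nontransgenic mice did not pass, and without those 2 arrays it was 0.55 ± 0.42 (adjusted p = 0.462). The other 3 secondary Mef2c probe sets differed by 0.10, -0.09 and -0.08, and the 3 measurable ones of Cux1 by -0.61, -0.44 and -0.17, none passing. No probe sequences were used here to say which part of a transcript a probe set reads.

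**Figure D3:**
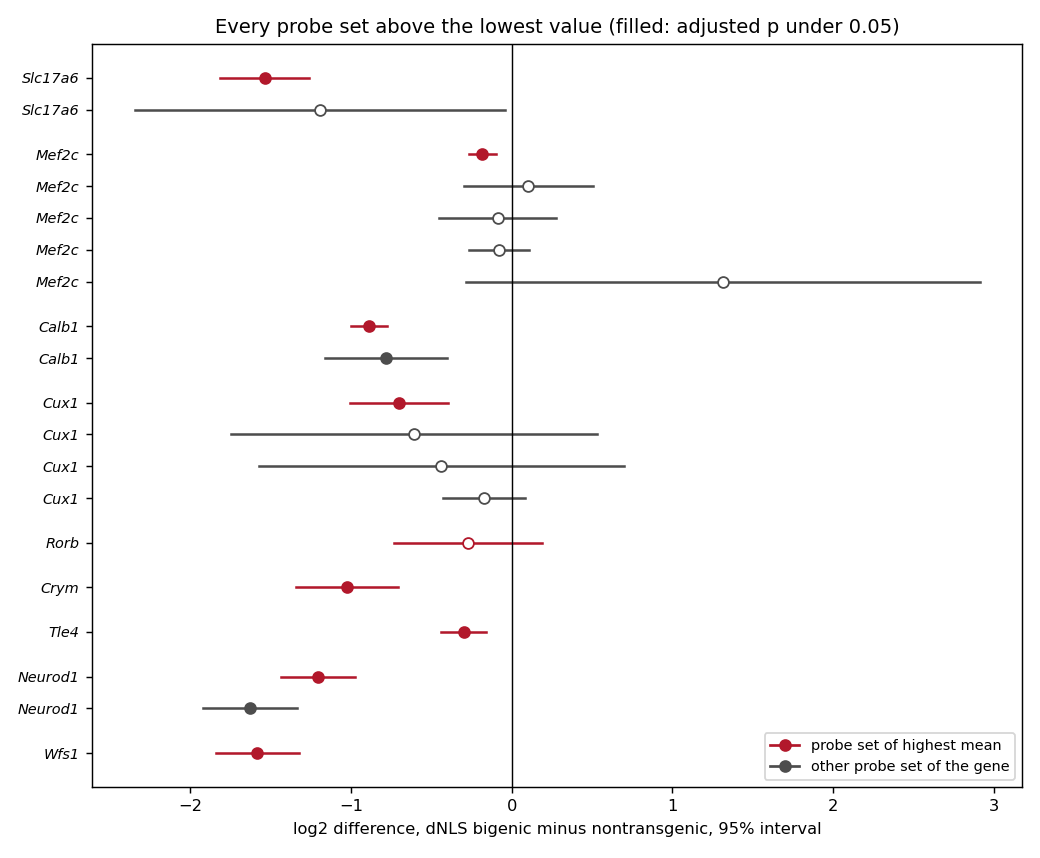
Log2 difference of dNLS bigenic minus nontransgenic mice for the 19 probe sets of the 9 genes that lay above the lowest value, with 95% intervals; filled points passed an adjusted p of 0.05 over 20380 probe sets. Both Neurod1 and both Calb1 probe sets passed, and 1 of 5 Mef2c and 1 of 4 Cux1 probe sets shown did.

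**Figure D4:**
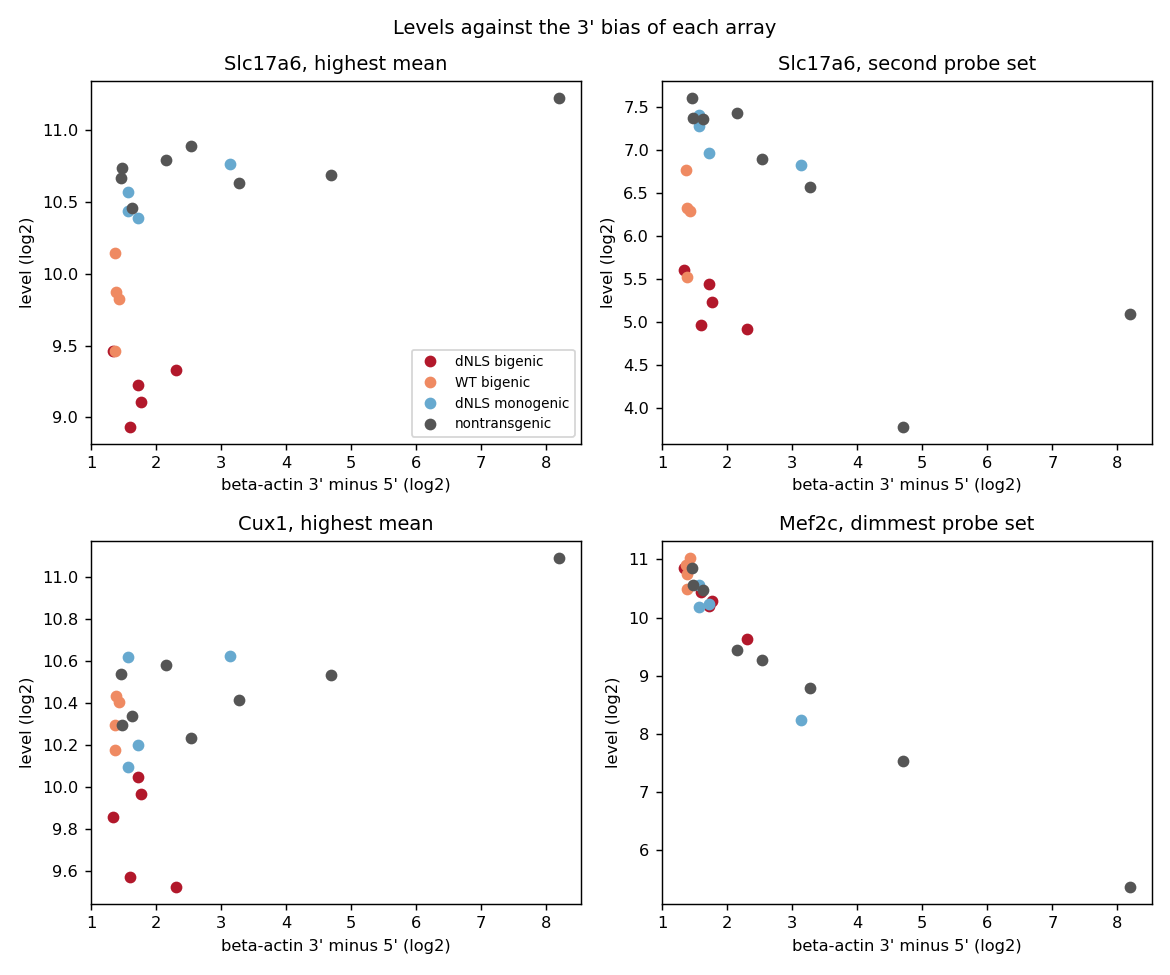
Log2 level of 4 probe sets (vertical) against the beta-actin 3' minus 5' difference of the array (horizontal, log2 units), 1 point an array, coloured by genotype. The nontransgenic arrays at 4.70 and 8.20 read low for the second Slc17a6 probe set and the dimmest Mef2c probe set, and the array at 8.20 reads highest for the representative sets of Slc17a6 and Cux1.

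The levels of the 9 genes were set against the levels of 8763 genes above the lowest value on at least 11 arrays, to find the genes whose pattern over the 21 arrays was most like each. These correlations describe arrays that share their genotype groups and their bias. Closest to Wfs1 were Rprm (Pearson r = 0.98), Kifap3 (0.96) and Calb1 (0.96), and closest to Calb1 were Ppp3r1 (0.98), a regulatory subunit of calcineurin, Fgf13 (0.97) and Rac1 (0.96). Closest to Slc17a6 were Matn2, Cxcl12 and Smoc2 (each 0.96). Neurod1 was closest to Pradc1 (0.94), Lamp5 (0.94) and Spag5 (0.93), and Crym to Ahi1 (0.95), Alcam (0.93) and Sdc2 (0.93).

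The weaker patterns had weaker neighbours. Cux1 was closest to Atp6ap2 (0.93), Mat2b (0.91) and Ywhah (0.90), Tle4 to Hp1bp3 (0.89), Ppp3ca (0.88) and Tomm70a (0.87), and Mef2c to Itgav (0.86), Ltk (0.86) and Tm9sf3 (0.86). Rorb was closest to Zfp944 (0.81), Dusp18 (0.77) and Cmpk1 (0.72). Among the 9 genes themselves, Calb1 and Wfs1 had the highest correlation (0.96) and Cux1 and Rorb the lowest (0.18).

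Other markers of the same neurons moved unevenly. Of 9 other measured upper-layer genes 3 were lower in dNLS bigenic than in nontransgenic mice and none was higher, where 22.3% of all genes passed and 11.5% passed as lower. Lamp5, a membrane protein of the lysosome-associated family, had 11.35 ± 0.16 in dNLS bigenic mice, 12.35 ± 0.10 in WT bigenic mice and 12.65 ± 0.12 in nontransgenic mice (SD, n = 5, 4 and 8). Its difference was -1.33 ± 0.06 (adjusted p = 2.4e-09) for dNLS bigenic and -0.27 ± 0.07 (adjusted p = 0.0483) for WT bigenic against nontransgenic mice, the same graded order as Calb1.

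Kitl, the ligand of the Kit receptor, was lower by 0.94 log2 units in dNLS bigenic mice (9.68 ± 0.17, against 10.59 ± 0.16 in nontransgenic mice, adjusted p = 5.6e-07). Pcdh8, an activity-regulated protocadherin, had 9.03 ± 0.38 in dNLS bigenic mice, 9.01 ± 0.24 in WT bigenic mice and 9.97 ± 0.40 in nontransgenic mice. Its difference was -1.04 ± 0.17 (adjusted p = 2.9e-04) for dNLS bigenic and -0.88 ± 0.18 (adjusted p = 0.0277) for WT bigenic mice, and the direct difference of the 2 bigenic groups, -0.16 ± 0.21 (adjusted p = 0.94), did not pass.

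Of 17 other measured deep-layer genes 3 were lower and 2 higher in dNLS bigenic than in nontransgenic mice, with a median of 0.00 in log2 units. Over all genes 22.3% passed in that comparison and 11.5% passed as lower. Rprm, a p53-induced cell cycle inhibitor used as a marker of layer 6, was lower by 1.75 ± 0.11 log2 units (10.20 ± 0.39 in dNLS bigenic mice and 12.0002 ± 0.12 in nontransgenic mice, adjusted p = 2.3e-08), and Id2, an inhibitor of basic helix-loop-helix factors, by 0.46 ± 0.06 (adjusted p = 1.7e-05). Higher were Opn3, an opsin of the brain, at 9.12 ± 0.44 in dNLS bigenic mice and 6.74 ± 0.62 in nontransgenic mice (2.29 ± 0.27, adjusted p = 1.0e-05), and Sox5, a factor of deep-layer neurons, at 6.40 ± 0.19 and 5.10 ± 0.80 in the same groups (1.34 ± 0.32, adjusted p = 0.00555). No other deep-layer gene passed in WT bigenic against nontransgenic mice.

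Of 8 other general markers of excitatory neurons 2 were lower and 1 higher in dNLS bigenic than in nontransgenic mice, where 22.3% of all genes passed and 11.5% passed as lower. Nptx1, a pentraxin of excitatory synapses, differed by -0.49 ± 0.07 (adjusted p = 5.3e-05), Tbr1, a T-box factor of layer 6, by -0.30 ± 0.09 (adjusted p = 0.0298), and Rtn4r, the Nogo receptor, by 0.55 ± 0.13 (adjusted p = 0.00477). Of 7 other hippocampal genes, Trpc6, a cation channel, was lower in both bigenic groups, at 7.61 ± 0.39 in dNLS bigenic mice, 7.07 ± 0.25 in WT bigenic mice and 8.93 ± 0.61 in nontransgenic mice. It differed from nontransgenic mice by -1.33 ± 0.28 (adjusted p = 0.00196) for dNLS bigenic and by -1.85 ± 0.29 (adjusted p = 0.0116) for WT bigenic mice. Lct, lactase, passed as higher with a difference of 0.06 at the lowest value of the array. Neither of 2 other layer 4 genes passed in dNLS bigenic against nontransgenic mice. Scnn1a lay near the lowest value, and Rspo1 passed as higher against dNLS monogenic mice (1.17 ± 0.36, adjusted p = 0.0384).

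**Figure D5:**
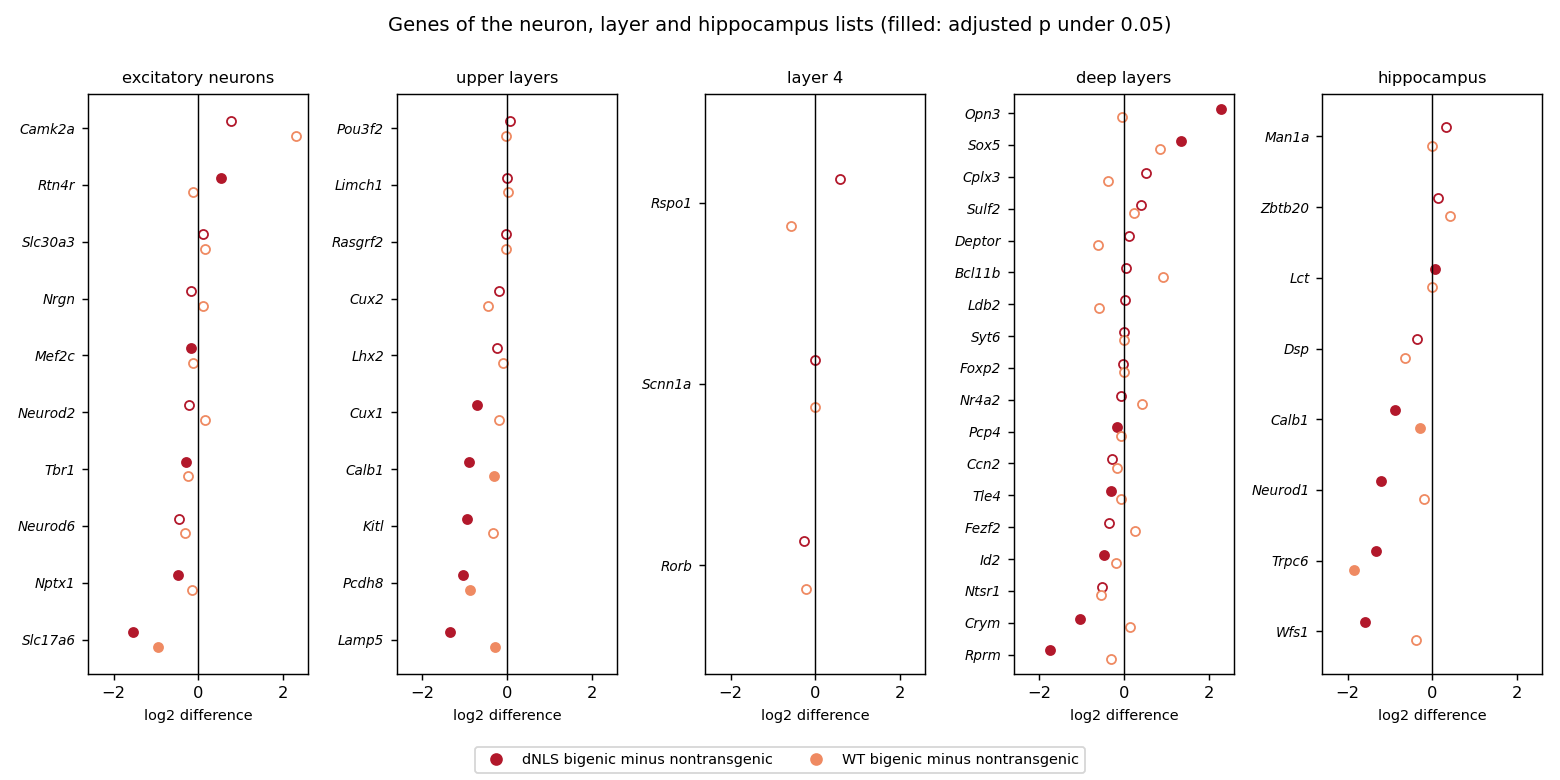
Log2 difference against nontransgenic mice of each measured gene of 5 marker lists, for dNLS bigenic (dark) and WT bigenic mice (light); filled points passed an adjusted p of 0.05. Most points lie near 0, and decreases of more than 1 log2 unit are seen in 4 of the lists. Of the points that passed, those of Opn3 and Sox5 stand farthest on the other side. Camk2a in WT bigenic mice, at 2.30 ± 1.30, did not pass (adjusted p = 0.363), and its level ran from 2.64 to 10.90 in nontransgenic mice.

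Markers of neurons in general and of other cells were read beside these genes, and their part in the result was not tested. In this comparison 22.3% of all genes passed and 11.5% passed as lower. Of 14 pan-neuronal genes 4 were higher in dNLS bigenic than in nontransgenic mice (Rbfox3, Tubb3, Thy1 and Uchl1) and 1, the neurofilament gene Nefl, was lower. The log2 of the summed linear level of the pan-neuronal genes was 16.41 to 16.56 in dNLS bigenic and 16.09 to 16.57 in nontransgenic mice, which overlapped. The sum of the 11 measured upper-layer genes was 13.55 to 13.66 in dNLS bigenic, 14.001 to 14.17 in WT bigenic and 14.29 to 14.53 in nontransgenic mice, with no overlap. That of 19 deep-layer genes was 14.77 to 14.89, 14.98 to 15.09 and 15.14 to 15.24 in the same groups, also with no overlap. For 10 excitatory genes dNLS bigenic mice (14.70 to 14.97) lay below nontransgenic mice (15.06 to 15.28). The sums of 3 layer 4 genes overlapped (5.82 to 7.85, against 5.70 to 6.33). These sums include the markers above, and the brightest genes weigh most in them.

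Of 14 interneuron genes 4 were lower (Gad1, Sst, Reln and Cck) and 1, Npy, higher, with sums of 14.95 to 15.001 in dNLS bigenic and 14.998 to 15.24 in nontransgenic mice. Of glial markers, Aldh1l1 was lower among 10 astrocyte genes, Tmem119 and Gpr34 among 11 microglial genes, and Mbp among 9 oligodendrocyte genes, and none was higher. Over all genes 11.5% passed as lower, so these glial counts were near that share. Of the striatal genes, which would enter with a different dissection, 1 of 6 was lower (Penk), and of 8 thalamic genes 1 was higher (Rora, by 0.84 log2 units). The sums overlapped between dNLS bigenic and nontransgenic mice for astrocytes (15.24 to 15.34, against 15.104 to 15.51), microglia (13.05 to 13.91, against 13.39 to 13.95), oligodendrocytes (15.53 to 15.67, against 15.28 to 15.89), the striatum (11.42 to 13.20, against 12.30 to 14.20) and the thalamus (11.31 to 11.59, against 11.02 to 11.47). No gene of the choroid plexus (5 measured) or blood (2 measured) lists passed in that comparison, with sums of 12.13 to 14.17 in dNLS bigenic and 10.60 to 13.87 in nontransgenic mice for the choroid plexus, and near the lowest value in both for blood, 3.04 to 3.11 and 3.04 to 3.04. The dNLS bigenic astrocyte sums lay wholly below those of WT bigenic (15.43 to 15.74) and dNLS monogenic mice (15.41 to 15.46). The dNLS bigenic interneuron sums lay below those of dNLS monogenic mice (15.02 to 15.12) and overlapped with WT bigenic mice (14.86 to 15.05). For microglia, oligodendrocytes, the striatum and the thalamus the sums overlapped with both of these groups. The median of the dNLS bigenic sums lay below the nontransgenic range for microglia (13.28) and the striatum (11.97). It lay above that range for the thalamus (11.55) and the choroid plexus (14.07). Itgam of the microglial, Lef1 and Gbx2 of the thalamic and Hba-a1 of the blood list were at the lowest value on all arrays, as were Pou3f3 of the upper-layer, Ntng2 of the deep-layer and Prox1 and Tdo2 of the hippocampal list. The summed hippocampal genes, 3 of whose 10 measured members are Calb1, Neurod1 and Wfs1, were at 13.13 to 13.40 in dNLS bigenic, 13.71 to 13.81 in WT bigenic and 13.76 to 14.06 in nontransgenic mice.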

How the data were processed

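Arrays of 21 mice were used as deposited by the authors: log2 levels of 22690 probe sets. The base of the logarithm was read from the range of the values, and how probe intensities were corrected, normalized and summarized was not given in the sources read here. Partek is named in the submitters' processing notes without a version. Genes were named from the supplied probe annotation. After 64 control probe sets were set aside, 20380 named 1 gene, 691 several and 1555 none, and the last 2 classes were not used. The probe set of highest mean stood for each of 12393 genes, of which 2854 lay at the lowest value on all arrays (tolerance 0.01) and were kept.

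One model with 4 groups and labelled sex was fitted to all 21 arrays with limma 3.58.1 in R 4.3.3 (lmFit, eBayes with an intensity trend), and p-values were adjusted over all genes by the Benjamini-Hochberg method. Another fit took 20380 probe sets, and the difference of the driven effects used nontransgenic mice split by line. Standard errors are those of the fit. On simulated data with independent noise for dNLS bigenic against nontransgenic mice, changes were planted in some genes well above the lowest value. Of changes of 0.5, 1, 2 and 3 log2 units, 58%, 80%, 100% and 100% were found. Of all calls over 12393 genes, 5.59% had no planted change. Dim genes such as Rorb were not given changes. The number of arrays limits the precision.

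The rule for named genes took the 10 markers, up to 4 other genes of each of 5 neuronal lists with the largest change past the threshold in dNLS bigenic against nontransgenic mice, the 3 genes most like each marker, and markers of other cells that passed there. The genes and lists were chosen with earlier results of these data known. Alternatives covered the sex term, scaling, trend, filter, probe set, controls, 3' bias, array weights, the samples fitted and leaving out each mouse.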

Additional observations from a re-analysis of the deposited data

Results flagged for a closer look

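Nontransgenic 6 had a Cux1 level of 11.09, farther from the next of the 8 nontransgenic mice, at 10.58, than their spread down to 10.23 would place it. Among 36 groups of 4 to 8 values tested in this way it was the only one to stand apart, and chance marks about 1 group in 20. The array also had the highest 3' bias, with a beta-actin difference of 8.20, and the part of the bias in this value was not tested.

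The effect of the driven transgene differed between the lines for 4 genes, by the test of the difference itself. The dNLS effect minus the WT effect, each against nontransgenic mice of its line, was -0.62 for Calb1, -1.08 for Crym, -1.03 for Neurod1 and -1.35 for Wfs1 on the log2 scale. Form of TDP-43 and line cannot be told apart in these values.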

How the results depend on the processing

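The 8 decreases in dNLS bigenic against nontransgenic mice kept their number under every alternative except 1, and in each of the 13 fits with a mouse left out (8 to 8). With the probe set of highest variance in place of the brightest, 5 markers passed there, 0 in WT bigenic against nontransgenic, 3 in dNLS bigenic against WT bigenic and 5 in dNLS bigenic against dNLS monogenic mice. That choice also turned Mef2c (1.31, 1.70, 0.49, 0.82 and 1.49 in dNLS bigenic and WT bigenic against nontransgenic, dNLS bigenic against dNLS monogenic, dNLS monogenic against nontransgenic and the line difference), Cux1 (0.62 in WT bigenic, 0.47 in dNLS monogenic against nontransgenic), Slc17a6 (0.67 in dNLS monogenic against nontransgenic, 0.15 in the line difference) and Calb1 (0.22 in dNLS monogenic against nontransgenic). The other turned values were near 0: in dNLS monogenic against nontransgenic mice, Tle4 at -0.011 with sex read from Xist and -0.041 with centred arrays, Calb1 at 0.0022 and Cux1 at 0.0032 with the beta-actin term, and Rorb at -0.044 with it and -0.038 without the 2 arrays of highest bias; in the line difference, Mef2c at 0.012 and 0.0014 with the last 2 settings and Tle4 at 0.045 with array weights; and Rorb at 0.17 in dNLS bigenic against WT bigenic mice with array weights.

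In WT bigenic against nontransgenic mice none of the markers passed with same-line controls, where 57 genes did, or in a fit of those 2 groups alone, where 0 genes passed in limma and 1547 had an unadjusted p under 0.05. The 276 genes of that comparison became 505 without the sex term, 163 with the beta-actin term, 424 without the 2 biased arrays and 869 with array weights. In dNLS bigenic against WT bigenic mice 1334 genes became 2437, 2274 and 3108 under the last 3 settings and 2320 with those 2 groups alone, in dNLS bigenic against dNLS monogenic mice 1773 became 2890, 2885 and 4318, and in dNLS bigenic against nontransgenic mice 2759 became 4247 with array weights. Secondary probe sets that passed went to 4, against 2, with the beta-actin term, an alternative chosen after seeing the data. The causes were not tested.

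With each mouse left out, gene counts ran from 2365 to 3316 for dNLS bigenic and 37 to 579 for WT bigenic against nontransgenic, 817 to 1301 for dNLS bigenic against WT bigenic, 1373 to 1683 for dNLS bigenic against dNLS monogenic and 0 to 1 for dNLS monogenic against nontransgenic mice. Marker counts ran from 1 to 2 for WT bigenic against nontransgenic, 4 to 5 for dNLS bigenic against WT bigenic, 6 to 8 for dNLS bigenic against dNLS monogenic, 0 to 0 for dNLS monogenic against nontransgenic and 2 to 5 for the line difference. Values that turned sign in some of these fits, all small, were Rorb (-0.20 to 0.33 in dNLS bigenic against WT bigenic, -0.12 to 0.25 in dNLS monogenic against nontransgenic), Mef2c (-0.072 to 0.049 in the line difference), and Calb1 (-0.049 to 0.0080) and Tle4 (-0.057 to 0.055) in dNLS monogenic against nontransgenic mice. Centring the arrays moved the median of the 8366 genes above the lowest value on all arrays. The shift was -0.08 in dNLS bigenic and -0.11 in WT bigenic against nontransgenic mice. No paired analysis was possible because the replicate numbers follow only the order of the samples. Levels near 2.04, those of Rorb above all, limit what can be seen.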
